A study of Mus musculus with 4 samples.

Results

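Imprinted genes are expressed mainly from the copy inherited from one parent. The 34 imprinted genes described here are textbook examples, given by name: a gene's regions are those rows of the deposited H3K9ac list that overlap the 1000 bp either side of any of its annotated transcript starts, or its span from first to last annotated base (GENCODE M21, mouse build GRCm38/mm10, any gene type). All 34 names were found, each once, among 55413 annotated genes, and 31 of the 45855 regions in the list belonged to them. The cells were HT22 (written TH22 in 1 label), immortalised neurons from mouse hippocampus, given choline chloride at 70 µM (supplemented) or 5 µM (control) over 48 h, both in high-glucose medium with serum and antibiotics. The series holds 2 libraries of chromatin immunoprecipitated with an antibody to H3K9ac, the acetylation of histone H3 at lysine 9 found at active promoters and enhancers, and 2 of input DNA. Choline level is not stated for any library, and with 2 immunoprecipitated libraries for 2 levels there were no replicates against which a difference could be set. The list holds no expression values, so the identity of the cells was not checked.

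What the list measures needs care. Its headers call the regions unique to condition 1 or unique to condition 2, and the names of the regions read 5 against 70, from which condition 2 is taken here as 70 µM and condition 1 as 5 µM. The title of the list, however, sets input against H3K9ac. If the 2 conditions were input and immunoprecipitated DNA, condition 2 regions would mark H3K9ac above input and not a difference between choline levels; the sources used here do not settle this. Each region carries an unnamed score, used here only to rank regions within the list (3.08 to 44.48, median 6.64). Of the whole list, 45495 regions (99.2%) are in condition 2 and 360 in condition 1. All 31 regions at imprinted genes are in condition 2, which is also what the list as a whole is made of. Regions alike in both conditions are not listed, so a gene without a region may carry H3K9ac at both levels. Reads were not assigned to parental alleles, and the read depth behind a region is unknown.

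As background, most imprinted genes lie in clusters, each governed by an imprinting control region whose CpG sites are methylated on the copy from 1 parent. In many of these clusters the methylated copy is the maternal one, and the control region is the promoter of a paternally expressed gene or of a long noncoding RNA that silences its neighbours. DNA methylation uses methyl groups from S-adenosylmethionine, to which choline contributes through betaine. In brain, imprinted genes act in growth, feeding, hormone signalling and synaptic function.

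The sequences below are the reference plus strand of build GRCm38 (RefSeq) under 7 of the regions, with CpG sites, where cytosine can be methylated, in capitals. They are shown because they set the CpG-rich regions at Gnas and Kcnq1ot1 beside regions with fewer CpG sites at Peg3, Ube3a, Grb10 and Igf2r.
Gnas, first of its regions, chr2:174327296-174327488: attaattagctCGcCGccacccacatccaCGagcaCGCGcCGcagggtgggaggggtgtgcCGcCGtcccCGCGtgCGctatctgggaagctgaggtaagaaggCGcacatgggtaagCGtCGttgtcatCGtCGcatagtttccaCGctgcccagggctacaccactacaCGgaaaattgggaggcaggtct
Gnas, last of its regions, chr2:174330473-174330596: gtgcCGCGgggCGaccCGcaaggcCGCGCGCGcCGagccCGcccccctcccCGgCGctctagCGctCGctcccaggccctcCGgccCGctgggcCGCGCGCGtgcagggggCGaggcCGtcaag
Kcnq1ot1, chr7:143295263-143295519: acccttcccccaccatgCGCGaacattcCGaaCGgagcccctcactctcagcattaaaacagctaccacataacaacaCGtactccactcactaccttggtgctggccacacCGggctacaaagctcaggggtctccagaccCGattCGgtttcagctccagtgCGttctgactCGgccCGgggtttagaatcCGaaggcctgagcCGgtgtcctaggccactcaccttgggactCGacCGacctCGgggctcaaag
Peg3, chr7:6729036-6729226: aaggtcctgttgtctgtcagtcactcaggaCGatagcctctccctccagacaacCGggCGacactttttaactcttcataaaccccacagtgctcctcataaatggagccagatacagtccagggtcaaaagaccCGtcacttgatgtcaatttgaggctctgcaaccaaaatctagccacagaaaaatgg
Ube3a, upstream of its starts, chr7:59228131-59228333: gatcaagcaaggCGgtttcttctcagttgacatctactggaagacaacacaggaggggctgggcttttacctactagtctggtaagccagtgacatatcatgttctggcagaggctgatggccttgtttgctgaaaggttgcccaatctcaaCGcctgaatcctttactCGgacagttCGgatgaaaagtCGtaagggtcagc
Grb10, chr11:12038222-12038363: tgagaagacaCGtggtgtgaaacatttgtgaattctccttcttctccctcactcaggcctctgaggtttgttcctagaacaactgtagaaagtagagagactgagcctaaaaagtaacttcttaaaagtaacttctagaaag
Igf2r, inside the gene, chr17:12751414-12751558: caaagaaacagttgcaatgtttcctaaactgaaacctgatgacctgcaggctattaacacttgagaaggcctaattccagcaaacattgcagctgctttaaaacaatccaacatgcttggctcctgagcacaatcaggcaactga
The 2 Gnas regions held 18 and 22 CpG sites and the Kcnq1ot1 region 16, against 4 at Peg3, 5 at Ube3a, 1 at Grb10 and 0 at Igf2r.

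A region within 1 kb of a start was found at 8 of the 34 imprinted genes (23.5%, exact Clopper-Pearson 95% interval 10.7 to 41.2), namely Gnas, Ube3a, Grb10, Impact, Mcts2, Igf2r, Ddc and H13. The same was true of 20.5% of all 55413 annotated genes and of 39.5% of the 21938 protein-coding genes. All 8 are protein-coding, which makes 8 of 27 protein-coding imprinted genes (29.6%, interval 13.8 to 50.2) and 0 of the 7 noncoding ones (H19, Airn, Kcnq1ot1, Meg3, Rian, Mirg and Peg13). The share thus lay near that of all genes, and the interval for the protein-coding members reached from below to above the protein-coding share. Counting the span as well, 15 of the 34 carried a region (44.1%), against 28.8% of all annotated genes and 54.7% of protein-coding genes. Per length, imprinted genes held 0.222 regions per 10 kb, against 0.306 for all annotated genes and 0.323 for protein-coding genes. The intervals cover counting over genes only, and some members share a region or a start. The count at starts was 4 with windows of 500 bp and 3 when only the most 5′ start of each gene was used, where 32.5% of protein-coding genes had a region in either case.

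**Figure D1:**
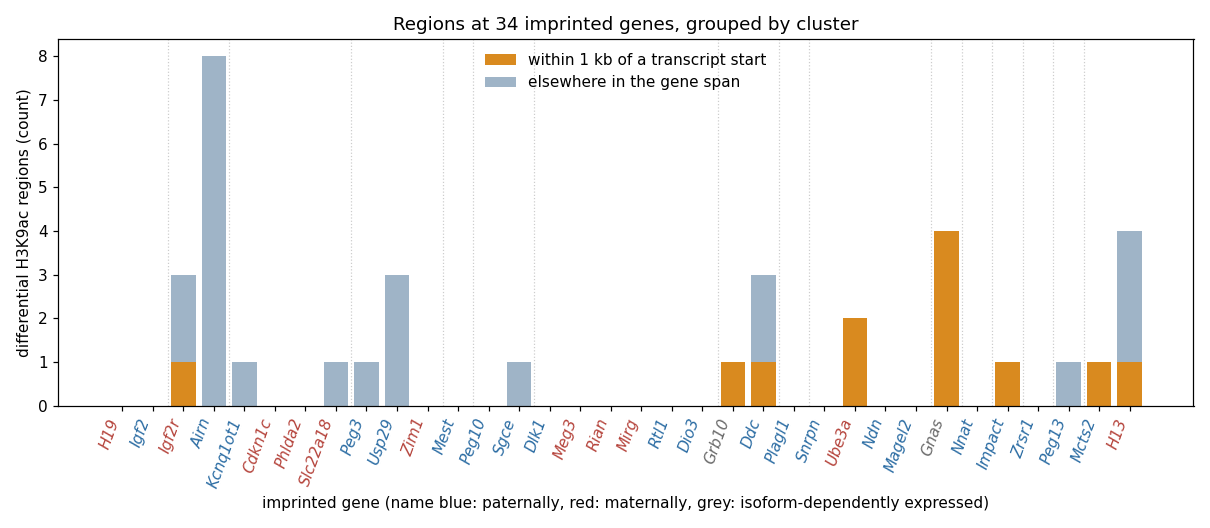
Number of differential H3K9ac regions (y axis, count) at each of the 34 imprinted genes (x axis), split into regions within 1 kb of a transcript start and regions elsewhere in the gene span, with dotted lines between clusters gene names coloured by expressed parental copy, and a region counted for each gene it overlaps. Airn had 8 regions, none at a start, Gnas had 4 at starts, and 19 genes had none.

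Gnas had the most start-site regions of the 34 genes, 4, all inside 3.3 kb. Gnas (ENSMUSG00000027523.19, chromosome 2, 174284320 to 174346744, plus strand) encodes the stimulatory G protein alpha subunit, which couples hormone receptors to cyclic AMP, and several other products from alternative first exons that differ in the parental copy they are expressed from. The authors' deposited table gives scores of 4.07, 4.19, 5.29 and 4.51, below the list median of 6.64. Start-site regions of the whole list had a median of 5.07 and regions with at least 15 CpG sites one of 4.91, so that 1 of the 4 stood above both and 3 below. The region at 174327296 to 174327488 lay 82 bp upstream of the start of transcript Gnas-212, and the one at 174330473 to 174330596 lay 186 bp downstream of the start of Gnas-205, in an intron. The 2 between them, at 174328630 to 174328760 and 174329014 to 174329228, overlapped exons with untranslated sequence. They held 15 to 22 CpG sites each. Of 16 annotated Gnas starts, 10 had a region within 1 kb, and the other 6, the most 5′ start among them, were at least 11.1 kb from any region. Of all protein-coding genes, 475 (2.17%) had at least 4 start-site regions. None of the 4 remained at or above the median score.

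**Figure D2:**
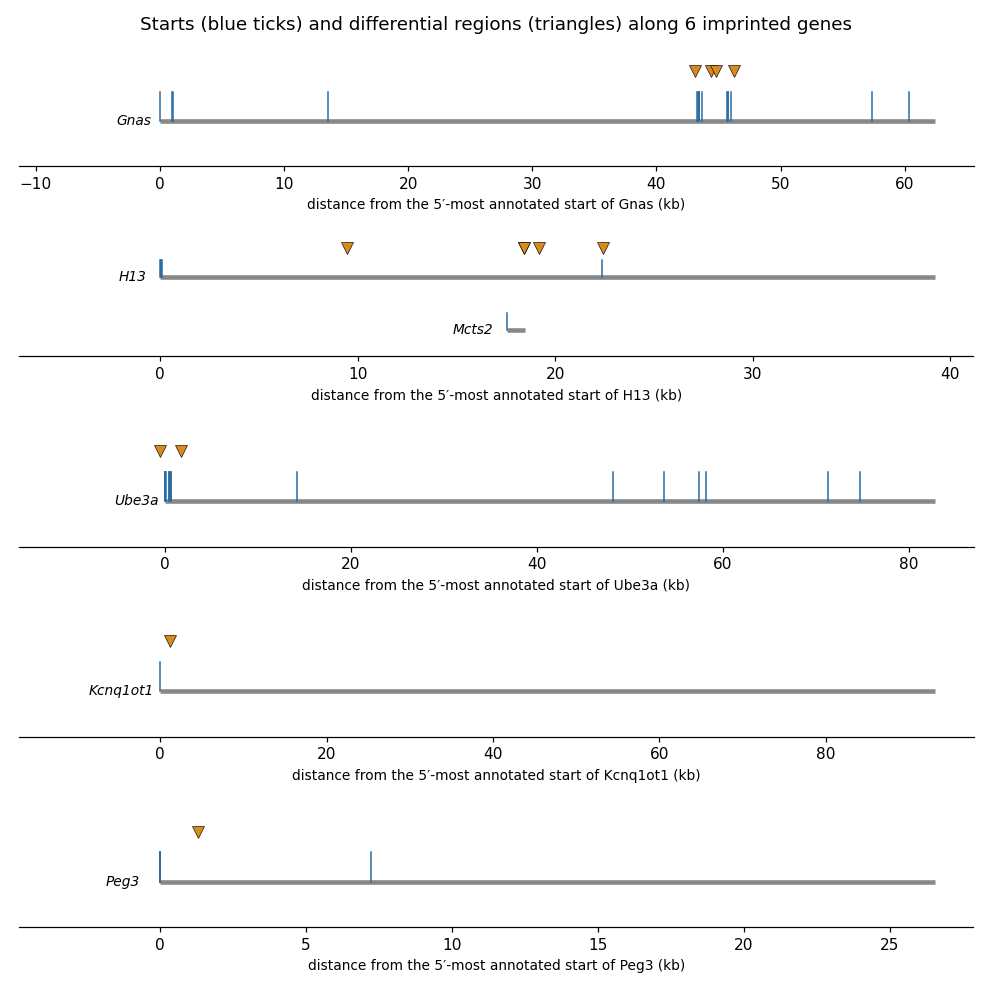
Position of differential regions (triangles) and annotated transcript starts (blue ticks) along Gnas, H13 with Mcts2 inside it, Ube3a, Kcnq1ot1 and Peg3, with distance from the most 5′ start in kb on each x axis, downstream to the right. The 4 Gnas regions stand together at a downstream group of starts, and the regions of Kcnq1ot1 and Peg3 stand just over 1 kb inside the genes.

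Of the members, 16 start, by textbook knowledge, at a germline differentially methylated region that is methylated on the maternal copy: Airn, Kcnq1ot1, Peg3, Usp29, Mest, Peg10, Sgce, Plagl1, Snrpn, Nnat, Impact, Zrsr1, Peg13, Mcts2, Grb10 and Gnas. A region at any annotated start of the gene was present at 4 of these 16 (25.0%), against 4 of the other 18 genes (22.2%). The share was 20.5% among all annotated genes and 39.5% among protein-coding genes. The start at the germline region was not told apart from a gene's other starts. Besides Gnas, the 4 were Impact, Mcts2 and Grb10. Impact, which encodes a regulator of the Gcn2 stress kinase, had a region of 279 bp with 21 CpG sites and a score of 4.56 per the authors' deposited table. It lay 598 bp upstream of transcript Impact-204, 1150 bp downstream of the start of Impact-203 and 1499 bp downstream of that of Impact-201. The most 5′ Impact start was 14.5 kb away. Mcts2, a retrogene inside an intron of H13, had a region of 144 bp with 2 CpG sites that lay 750 bp downstream of its start in its exon, with a score of 4.81 in that table. Grb10, which encodes an adaptor that restrains insulin and growth factor receptors, had a region 320 bp downstream of its most 5′ start. Its score of 3.37 per the authors' deposited table stood above 1.09% of the list. Of 9 Grb10 starts, 7 were at least 10.3 kb from any region.

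At 2 further genes of this kind a region fell just outside the 1 kb limit. Kcnq1ot1, the paternally expressed noncoding RNA that silences its cluster, had a region 1030 bp downstream of its start, 30 bp too far, with 16 CpG sites and a score of 5.33 per the authors' deposited table. Peg3, which encodes a zinc finger transcription factor, had a region of 191 bp in an intron, 1193 bp downstream of a start, with a score of 3.47 in that table. The same region lay 1352 bp upstream of Usp29, a ubiquitin-specific protease gene that starts next to Peg3 on the other strand. On the inner side of the limit, the farthest start-site region was at Ube3a, 971 bp from a start. With windows of 2500 bp, 7 of the 16 genes had a start-site region, against 46.5% of protein-coding genes. With windows of 500 bp, 2 of them did, against 32.5%, and none had one at or above the median score, against 14.6%.

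The remaining genes of this kind had their starts farther from any region. Distances given are to the nearest annotated start of a gene, which need not be the one at the germline region. From the farthest start, the nearest region was 52.3 kb away at Sgce, 43.0 kb at Mest, 72.4 kb at Plagl1 and 226 kb at Snrpn. The nearest region was 4.56 kb from a start of Nnat, a brain proteolipid gene, 4.67 kb from the start of the noncoding RNA Peg13, 7.96 kb from Zrsr1, a retrogene related to splicing factors, 10.0 kb from Airn and 17.1 kb from Sgce, the epsilon-sarcoglycan gene. It was 24.5 kb from Mest, 46.8 kb from Plagl1, which encodes a growth-restraining zinc finger factor, 52.4 kb from Peg10, a gene derived from a retrotransposon, and 104 kb from Snrpn, a spliceosomal protein gene. Sgce had 1 region deep in its span, with a score of 4.40 per the authors' deposited table, and Peg13 had 1 at its 3′ end. The Peg13 score of 19.01 in that table is the commonest exact score of the list, shared by 2552 regions, so its rank says little.

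Igf2r and Airn form a sense and antisense pair. Igf2r, the maternally expressed receptor that clears IGF2 for degradation (chromosome 17, 12682406 to 12769664, minus strand), and Airn, the paternally expressed antisense RNA that silences it, shared 3 regions with scores of 11.53, 9.66 and 10.54 per the authors' deposited table. They lay 10016 to 13043 bp downstream of the nearest Airn start, inside introns of both genes, and held 0, 2 and 3 CpG sites. Igf2r counted as having a start-site region only through the internal transcript Igf2r-202, which does not encode a protein, 614 bp from the first of them; its most 5′ start was 11.5 kb from any region. Airn had 5 more regions farther along its span. The highest score of these, 17.97 per the authors' deposited table, was at a start of another annotated gene, CT030636.1, and another, with the common score of 4.01, at a start of Mas1, so that neither can be put down to Airn alone.

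Of the maternally expressed genes that restrain growth in the Kcnq1ot1 cluster, none had a region at a start. Cdkn1c, which encodes the cell cycle inhibitor p57, had its nearest region 18.6 kb away, and Phlda2, which limits placental growth, 6.24 kb away. Slc22a18, a transporter gene, had 1 region in a coding exon 4.5 kb from a start, with a score of 17.88 per the authors' deposited table. H19, the maternally expressed noncoding RNA, and Igf2, the paternally expressed growth factor gene beside it, had none in their spans, with the nearest region 33.3 kb from H19 and 41.5 kb from Igf2. Zim1, the maternally expressed zinc finger gene next to Peg3, had none within 32.6 kb of a start. Usp29 had 3 regions in its span of 236642 bp, with scores of 4.65, 12.22 and 7.15 per the authors' deposited table. Exact copies of at least 36 bp elsewhere, on many chromosomes, together cover all of the last of these regions. Its reads may therefore not be placed with certainty, which was not tested. The other 30 of the 31 regions had no such copy.

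The 6 genes of the Dlk1-Dio3 cluster had no region at all. They are the paternally expressed Dlk1, a Notch-ligand-like gene, Rtl1, derived from a retrotransposon, and Dio3, the deiodinase gene that inactivates thyroid hormone, and the maternally expressed noncoding RNAs Meg3, Rian and Mirg, which carry microRNAs and small nucleolar RNAs. The nearest region was 11.6 kb from Dlk1, 30.7 kb from Dio3, 29.8 kb from Mirg, 99.7 kb from Meg3, 120 kb from Rian and 159 kb from Rtl1. In the 829 kb from Dlk1 to Dio3, 4 regions lay between the genes, which is 0.482 per 100 kb, against 0.996 over chromosome 12 and 1.68 over chromosomes 1 to 19, X and Y.

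In the Snrpn-Ube3a cluster, Ube3a was the only member with a region. Ube3a, an E3 ubiquitin ligase gene that is expressed from the maternal copy in neurons and lost in Angelman syndrome (chromosome 7, 59228750 to 59311536, plus strand), had 2. The first lay 417 bp upstream of its most 5′ start, held 5 CpG sites and had a score of 6.60 per the authors' deposited table. The second lay 971 bp downstream of another start, in an intron, held no CpG site and had a score of 3.90 in that table. Ndn and Magel2, paternally expressed genes of the MAGE family, were 72.8 and 42.3 kb from the nearest region. Over the 3150 kb of the cluster there were 0.285 regions per 100 kb, against 1.73 over chromosome 7.

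Ddc and H13 carried the regions with the highest scores. Ddc, the aromatic amino acid decarboxylase gene of dopamine and serotonin synthesis, has a paternally expressed form in the mouse heart. Its region at 11881370 to 11881546 on chromosome 11, in an intron and 741 bp upstream of the internal noncoding transcript Ddc-207, had a score of 23.59 per the authors' deposited table, the highest of the 31. Its other 2 regions, also in introns, had scores of 16.04 and 10.03 in that table, and its most 5′ start was 16.6 kb from any region. H13, which encodes signal peptide peptidase and is maternally expressed in its full-length form, had a region of 302 bp in an intron, 9.25 kb downstream of a start, with a score of 23.41 per the authors' deposited table. Its start-site region, 7.06 in that table, covered the start of a retained-intron transcript inside the gene. The most 5′ H13 start was 9.32 kb from any region.

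**Figure D3:**
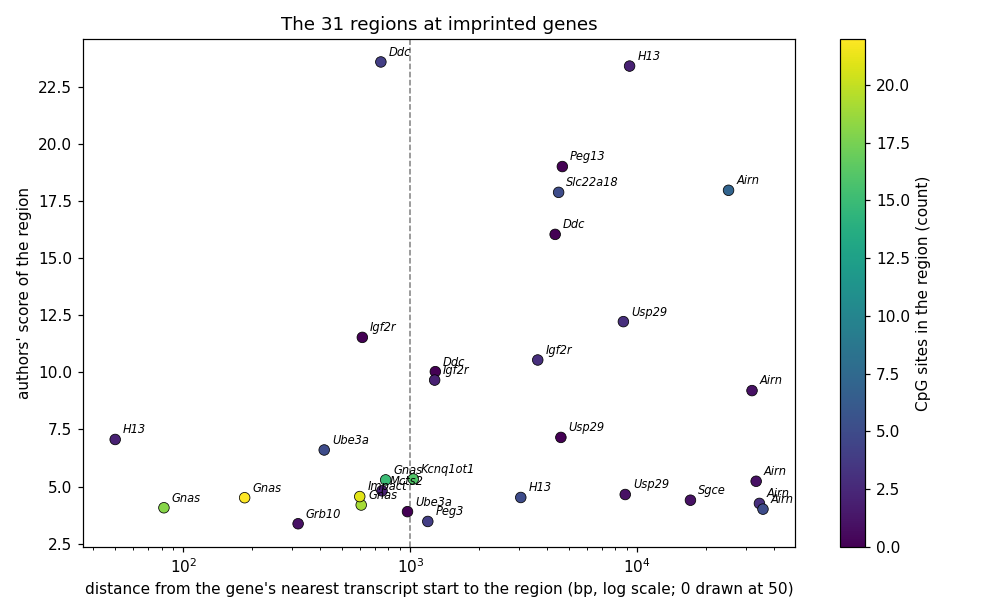
Score of each of the 31 regions per the authors' deposited table (y axis) against its distance from the nearest transcript start of the gene (x axis, bp, log scale), coloured by its number of CpG sites, with a dashed line at 1 kb, a distance of 0 drawn at 50 bp and each region named for the member whose start is nearest. The 5 start-site regions at Gnas and Impact are CpG-rich and score 4.07 to 5.29. The highest scores belong to regions of Ddc and H13 with 4 and 2 CpG sites.

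Genes classed by textbook knowledge as paternally or maternally expressed were set side by side. Which copy these cells express was not measured. Of 21 paternally expressed members, 3 had a start-site region (Ddc, Impact and Mcts2; 14.3%, exact 95% interval 3.05 to 36.3), and of 11 maternally expressed members, 3 did (Igf2r, Ube3a and H13; 27.3%, interval 6.02 to 61.0). Both genes whose expressed copy depends on the isoform, Gnas and Grb10, had one. Counting spans, 9 of the 21 paternally and 4 of the 11 maternally expressed genes carried a region (42.9% and 36.4%). The intervals overlap over most of their length, and no difference between the classes could be resolved with these numbers of genes. The order also turned on the window: with 2500 bp, 6 paternally and 3 maternally expressed genes had a start-site region, and with 500 bp, 0 and 2 did. With the most 5′ starts alone, it was 1 of each class, and at or above the median score, 1 and 2. With windows of 1 kb, 39.5% of protein-coding genes and 20.5% of all annotated genes had a start-site region. Counting spans, these shares were 54.7% and 28.8%. Of protein-coding genes, 46.5% had a start-site region with 2500 bp, 32.5% with 500 bp or with the most 5′ starts, and 14.6% at or above the median score.

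By cluster, 12 of 16 held a region between the outermost bases of their members, start windows included, and 10 held one on a member. Mest, Plagl1, Nnat and Zrsr1, each a cluster of 1 gene here, held none. The density was 9.95 per 100 kb at Mcts2-H13, 6.31 at Gnas and 4.50 at Igf2r-Airn, against 1.58 over chromosome 2 for the first 2 and 2.70 over chromosome 17 for the last. It was 1.08 at H19-Igf2, 0.998 at Kcnq1ot1 and 1.35 at Peg3, against 1.73 over chromosome 7, and 1.77 at Grb10-Ddc, against 3.75 over chromosome 11. Impact held 2.62, against 0.983 over chromosome 18, Peg10-Sgce 1.16, against 1.66 over chromosome 6, and Peg13 17.5, against 3.71 over chromosome 15. The Mcts2-H13, Gnas and Igf2r-Airn clusters consist of gene spans and start windows, while a chromosome also holds sequence between genes. Over spans and start windows, all annotated genes held 0.306 regions per 10 kb and protein-coding genes 0.323. On that measure, Mcts2 held 5.0, H13 0.995, Gnas 0.631, Airn 0.668 and Igf2r 0.34. No condition 1 region lay in a cluster or within 100 kb of one. Condition 1 holds 360 of the 45855 regions of the list, so its absence here says little.

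**Figure D4:**
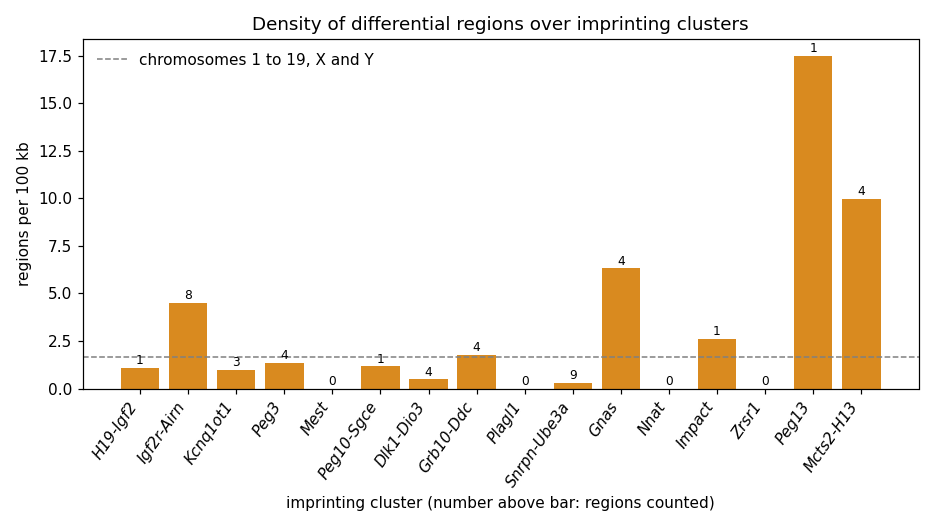
Differential regions per 100 kb (y axis) in each of the 16 imprinting clusters (x axis), with the number of regions above each bar and a dashed line at 1.68 per 100 kb, the density over chromosomes 1 to 19, X and Y. Mcts2-H13, Gnas, Igf2r-Airn, Impact and Grb10-Ddc stand above the line and the long Snrpn-Ube3a and Dlk1-Dio3 clusters below it. The high bar of Peg13 rests on 1 region in 5.72 kb. The line also covers sequence between genes.

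The starts of imprinted genes were rich in CpG sites. Within 1 kb of the start with most of them, the median was 91.5 CpG sites for imprinted genes, 26 for all annotated genes and 69 for protein-coding genes. Genes with more CpG sites at the start more often had a region in the list as a whole. Among the 22 imprinted genes with at least 83 CpG sites, 7 had a start-site region (31.8%), against 61.6% of 8769 protein-coding genes in that range. At 4 of the 7, Gnas, Impact, Igf2r and H13, the regions lay at internal starts and not at the most 5′ one. The 20 protein-coding members among the 22 include all 7. The 15 without one were Airn, Peg3, Usp29, Mest, Plagl1, Nnat, Zrsr1, Peg13, Igf2, Cdkn1c, Phlda2, Peg10, Sgce, Dlk1 and Dio3. Dio3, with 229 CpG sites, and Cdkn1c, with 216, had more than Gnas, with 203. Peg3 and Usp29, and likewise Peg10 and Sgce, share a start, so these are not independent genes, and no test of the difference was made.

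**Figure D5:**
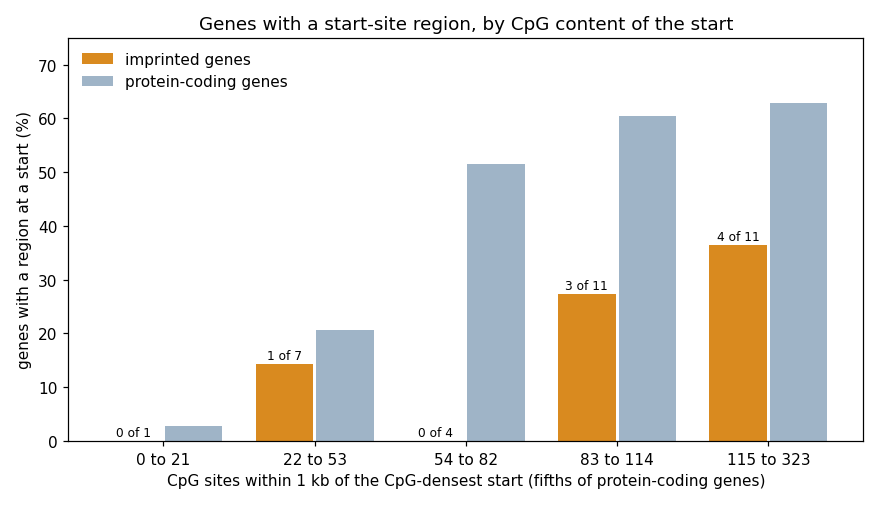
Share of genes with a start-site region (y axis, %) among imprinted genes, with counts above the bars, and protein-coding genes, by number of CpG sites within 1 kb of the CpG-densest start (x axis, 5 groups of protein-coding genes of about equal size). Of imprinted genes, 3 of 11 and 4 of 11 had a region in the upper 2 groups, against 60.4% and 62.8% of protein-coding genes.

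Regions at starts had lower scores and more CpG sites than regions elsewhere, both among the 31 and in the whole list. The 12 at starts had a median score of 4.69 and the other 19 of 9.20 per the authors' deposited table, against 5.07 and 8.90 for start-site and other regions of the whole list. Median CpG density was 2.36 per 100 bp at starts and 0.725 elsewhere, against 2.70 and 1.01 in the whole list. The 6 regions with at least 15 CpG sites, 4 at Gnas and 1 each at Impact and Kcnq1ot1, had scores from 4.07 to 5.33 per the authors' deposited table, while the other 25 ranged from 3.37 to 23.59. Of the 31 regions, 2 lay over 50% in sequence that the reference masks as repeats (6.45%), against 13.9% of the list.

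Factors that bind imprinting control regions have known motifs, which were searched on both strands. The methylated hexamer TGCCGC, read by the zinc finger protein ZFP57 that protects imprints after fertilisation, occurred in 5 of the 31 regions (16.1%), against 4.16% of list regions in the same range of widths. They were 3 of the Gnas regions, the Impact region and the Slc22a18 region. At starts the counts were 4 of 12 (33.3%), against 7.36% of start-site regions of the same widths. The hexamer itself holds a CpG, and the 4 regions, 3 of them at Gnas, had 18 to 22 CpG sites each. Among regions with at least 15 CpG sites, 4 of 6 at imprinted genes held it, against 23.9% of 3394 in the list. The part of CpG content in the count was not tested. The consensus of CTCF, which insulates the unmethylated H19 control region, occurred in none of the 31 regions and in 10 of the list. A match says only that these letters are present.

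Other genes known to be imprinted, and genes that keep imprints, were counted from fixed lists. Of 38 further imprinted genes, 15 had a start-site region (39.5%) and 27 had a region at a start or in the span (71.1%). The shares of protein-coding genes were 39.5% at a start and 54.7% with the span, and those of all annotated genes 20.5% and 28.8%. The 38 genes are a mixed set: Zim3, Zfp264, Snhg14 and Nespas are not protein-coding, and none of these had a start-site region. The highest scores at starts per the authors' deposited table were at Calcr, the calcitonin receptor gene (21.57), Cobl, an actin nucleator gene (19.70), Commd1, which hosts Zrsr1 (9.39), Trappc9, which hosts Peg13 (9.04), Cd81, a tetraspanin gene at the edge of the Kcnq1ot1 domain (7.31), and Casd1, next to Sgce (6.92). Blcap, which hosts Nnat, also had a region at a start, with a score of 3.37 per the authors' deposited table. Of 13 genes that keep or read imprints, all protein-coding, 9 had a start-site region (69.2%), against 39.5% of protein-coding genes. The highest scores per the authors' deposited table were at the DNA methyltransferase genes Dnmt1 (20.43) and Dnmt3a (19.69), the chromatin gene Arid4b (18.57), Ctcf (9.59), Uhrf1, which brings Dnmt1 to newly replicated DNA (7.61), and Trim28, the corepressor that ZFP57 recruits (6.78). Zfp57 itself had 2 start-site regions, with a highest score of 4.8 in that table, and Setdb1, Dppa3, Dnmt3l and Smchd1 had none at a start. Within 1 kb of the CpG-densest start, these 13 genes held from 47 (Dnmt3l) to 268 (Dnmt3a) CpG sites. Of protein-coding genes with at least 83, 61.6% had a start-site region. The part of CpG content in the share of the 13 genes was not tested.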

How the data were processed

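The labels divide the 4 libraries into 2 of H3K9ac chromatin and 2 of input DNA. CASAVA 1.8, Bowtie 1.0.0, MACS2 and build mm10 are named, per the submitters' processing notes. Per the series' design text, peaks were called against input and differences between choline levels with the bdgdiff function. The authors deposited 1 list of regions with a score each, a column without a name in the file. The scaling of the libraries is not stated in these sources. The list has no values by library and no replicates (0 columns of other samples), so no statistical test was made.

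Regions were set against GENCODE M21 and RefSeq GRCm38.p6 sequence on chromosomes 1 to 19, X and Y (Python 3.11.15, NumPy 2.4.6, SciPy 1.17.1), with an overlap of at least 1 bp. Soft-masked bases of the reference were counted as repeats, and exact copies of at least 36 bp were sought with BLAST 2.17.0. Overlaps were tested on simulated data. Members, classes and lists were chosen with earlier results of these data known; all 34 members are named, and of the other lists the 6 start-site regions with the highest scores, with Blcap, Zfp57 and the unmarked factors added after their values were seen. Alternatives were other windows, the midpoint or at least 50% of a region, the most 5′ start, each condition alone, only the upper 50% of scores, the list without the 2 commonest scores and without regions at starts of other genes, and, chosen after seeing the data, without repeat-masked regions. Depth is unknown, and intervals cover counting over genes only.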

Additional observations from a re-analysis of the deposited data

How the results depend on the processing

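Of 72 recomputed counts, 51 stayed within 1.5 times the reported one. With windows of 500 bp, 4 imprinted genes, 0 paternally expressed ones and 2 with a start at a maternally methylated germline region had a start-site region, as did 32.5% of protein-coding genes; with 2500 bp (46.5%), 6 paternally expressed genes and 7 of that kind did, since the regions of Kcnq1ot1 and of Peg3 and Usp29 came inside. With the most 5′ starts alone (32.5%) the counts were 3 imprinted genes (Grb10, Ube3a and Mcts2), 1 paternally and 1 maternally expressed gene and 2 of that kind. At or above the median score, 14 regions remained, on 7 genes, with 3 genes marked at a start (Igf2r, Ddc and H13), 1 of them paternally expressed and 0 with a germline region at the start, while the share of protein-coding genes marked at a start was 14.6%, against 39.5% as reported. Restricted to condition 1 (0.88%), all 7 counts were 0, and restricted to condition 2 (39.2%), all 7 were unchanged. No condition 1 region lay in a cluster, so both outcomes, which are among the 72, were fixed in advance. The other settings moved none of the counts by over 1.5 times. No paired analysis was possible because no value belongs to a single library. The unknown read depth limits what the absence of a region can show.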

Other observations

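In the clusters, 13 regions lay on none of the 34 genes. In the Snrpn-Ube3a cluster, 2 of 7 such regions overlapped the small annotated genes Gm25350 and Gm25157 inside the noncoding transcript Snhg14; they lay wholly in masked repeats and had scores of 4.11 and 4.50 per the authors' deposited table. A region with 10 CpG sites and a score of 3.82 in that table was 104 kb upstream of Snrpn, in no annotated gene. Between H19 and Igf2, 1 region with 1 CpG site and a score of 6.99 per the authors' deposited table lay in Gm33148. Of the 38 further imprinted genes, Tspan32 carried the only condition 1 region in a start window or span.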
